A study of Mus musculus with 3 samples.

Results

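Metallothioneins and iron-handling genes were followed through a mouse glioblastoma by sort, by stage and by cell class. The 9 genes were listed by name for their roles, with no threshold on a measured value but with earlier results of these data known: the metallothioneins Mt1, Mt2 and Mt3, the ferritin chains Fth1 and Ftl1, the transferrin receptor Tfrc, the iron exporter Slc40a1 (ferroportin), the haem oxygenase Hmox1 and the phagosomal metal transporter Slc11a1 (Nramp1). All 9 were found among 50262 measured genes. The tumors came from adult mice of mixed background that carried a Cre-dependent human EGFR transgene in its wild-type form (EGFR WT) together with, among other alleles, loss of Cdkn2a and a conditional luciferase. They were started by intracranial lentivirus encoding iCre, with or without TGFa, so that recombination took place only in infected brain cells. Brains without cerebellum were dissociated, myelin and red cells were depleted, and viable CD45+ (hematopoietic) and CD45- cells were sorted separately into inDrop droplets, in which each transcript is tagged with a unique molecular identifier (UMI). Early, medium and late tumors were compared, each as 1 tumor sample with both sorts; early material was pooled from more than 1 mouse, and normal brain was not analysed here. Every mouse compared carried the tumor genotype, so no contrast below is one of tumor against healthy tissue.

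Metallothioneins are small cysteine-rich proteins that bind zinc and copper. Mt1 and Mt2 are induced by metals, glucocorticoids and oxidative stress in many cell types, whereas Mt3 is the brain form. Iron enters most cells bound to transferrin through Tfrc, is stored inside shells of the ferritin heavy (Fth1) and light (Ftl1) chains, and leaves through Slc40a1, the known mammalian iron exporter. Macrophages recover iron from ingested red cells by opening haem with Hmox1, and Slc11a1 moves divalent metals out of their phagosomes. Oligodendrocytes are the iron-rich cells of the brain, and brain endothelium carries transferrin receptor at the blood–brain barrier.

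Fth1, Ftl1, Slc40a1 and Tfrc share an RNA hairpin, the iron-responsive element, through which iron regulatory proteins block translation when it lies ahead of the coding sequence and protect the message when it lies behind it. The elements are shown because they separate the storage and export genes from the uptake gene. They were read from GENCODE M21 transcripts (GRCm38) as an unpaired C, a paired stem and the loop CAGTGN, and the capitals mark that C and that loop.
Fth1, 5′ untranslated region: ttcctgCttcaaCAGTGCttgaacggaa
Ftl1, 5′ untranslated region: gtcttgCttcaaCAGTGTttgaacggaa
Slc40a1, 5′ untranslated region: caacttCagctaCAGTGTtagctaagtt
Tfrc, 3′ untranslated region, the first of its matches: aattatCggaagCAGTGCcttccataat
Tfrc, the second: cattatCgggagCAGTGTcttccataat
Tfrc, the third: ctatatCggagaCAGTGAtctccatatg
Tfrc, the fourth: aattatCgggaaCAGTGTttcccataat

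A match of this kind was present in the 5′ untranslated region of 0.112% of 20597 genes and in the 3′ untranslated region of 0.477% of 20979 genes. The unpaired C stood at base 664 of 795 in the Fth1 region, base 84 of 253 in Ftl1, base 96 of 319 in Slc40a1, and bases 889, 1268, 1333 and 1380 of 2458 in Tfrc. Each position is from the transcript with the longest region that held the element, which for Fth1 was Fth1-203. Positions can differ in other transcripts, and Fth1 has another RefSeq start further downstream. These are matches to letters and say nothing of iron in the cells, and UMI counts do not measure translation.

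Mt1 and Mt2 lie beside each other on chromosome 8 and were the members whose levels followed each other most closely across cell classes, so the 250 bases upstream of each RefSeq start (GRCm38.p6, plus strand) are given with the core of the metal response element in capitals. The core was searched as TGCACNC or TGCGCNC on both strands, and a match on the minus strand appears as its reverse complement.
Mt1, chr8:94178839-94179088: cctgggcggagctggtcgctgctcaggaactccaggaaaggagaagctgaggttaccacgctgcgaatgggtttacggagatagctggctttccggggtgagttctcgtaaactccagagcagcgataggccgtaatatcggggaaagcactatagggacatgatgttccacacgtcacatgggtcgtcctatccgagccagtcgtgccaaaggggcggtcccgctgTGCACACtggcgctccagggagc
Mt2, chr8:94172368-94172617: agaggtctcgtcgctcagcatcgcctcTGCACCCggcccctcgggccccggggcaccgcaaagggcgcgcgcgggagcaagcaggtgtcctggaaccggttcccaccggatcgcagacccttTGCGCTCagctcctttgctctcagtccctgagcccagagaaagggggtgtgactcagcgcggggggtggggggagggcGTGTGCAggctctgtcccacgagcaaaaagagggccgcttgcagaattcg

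In these windows, Mt1 held 1 match and Mt2 held 3. The counts depend on the RefSeq start used, and sequence outside the windows was not searched. The Mt1 window ended at 94179088, past the GENCODE start of the gene at 94179082. The Mt2 window ended at 94172617, before the GENCODE start at 94172664. The 2 counts therefore do not show which gene has more elements. Among 32851 RefSeq promoters of this length, 21.4% held at least 1 match and 1.26% held at least 3. Of the 7 members with a promoter entry, Tfrc held 2 overlapping matches and Mt3, Fth1, Ftl1 and Slc11a1 held none.

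By GENCODE M21 on GRCm38, Mt1 (ENSMUSG00000031765) lies at chr8:94179082-94180327, Mt2 (ENSMUSG00000031762) at chr8:94172664-94173568 and Mt3 (ENSMUSG00000031760) at chr8:94152607-94154146. Fth1 (ENSMUSG00000024661) lies at chr19:9980598-9985098 and Ftl1 (ENSMUSG00000050708) at chr7:45457944-45459884. Tfrc (ENSMUSG00000022797) lies at chr16:32608920-32632794, Slc40a1 (ENSMUSG00000025993) at chr1:45908068-45926523, Hmox1 (ENSMUSG00000005413) at chr8:75093621-75100589 and Slc11a1 (ENSMUSG00000026177) at chr1:74375195-74386062. All are annotated as protein coding.

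The analysis used 17781 cells from 24 libraries, 4 for each stage and sort, spread over 3 sequencing runs. The 3 deposited samples are these runs, each a mixture of all stages and sorts, and the annotation of each library gave the stage and sort of its cells. All libraries of a stage carried the same number in their names, and each such number was taken as 1 tumor sample, which is the n of 3 used here. Summed by tumor sample and sort, they gave 1603 to 5091 cells and 5381839 to 10808099 UMIs, with a median of 1964 to 3078.5 UMIs per cell. Ptprc, which encodes CD45, stood at 227 to 250 CPM (the UMIs of a gene per 1000000 UMIs of the sum) in the CD45+ sums and at 3.59 to 15.9 CPM in the CD45- sums. The human EGFR transgene stood at 7.28, 706 and 1220 CPM in early, medium and late CD45- cells. Hemoglobin and other erythroid markers summed to 5659 CPM in early CD45- cells, against 55.6 and 17.6 CPM in the medium and late ones. Within a tumor and sort, 2104 cells shared 974 barcodes between libraries, with up to 25.7% of the smaller library in a pair of libraries; 86.3% of these barcodes fell in 1 class, so some cells may have been counted more than once and the cell numbers below may be too high. Keeping 1 cell per barcode left 16651 cells and changed no call of the 9 genes. Below, levels are CPM in the order early, medium and late, ± is the SD over the 3 tumor samples, and "called" means a Benjamini-Hochberg adjusted p under 0.05 in edgeR's quasi-likelihood test across all genes with the tumor sample as a block. Intervals are 95% and cover counting error only.

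Members of the list differed between the sorts in both directions. In CD45+ cells, Ftl1, Hmox1, Slc11a1 and Slc40a1, the ferritin light chain and the genes of macrophage iron recycling and export, were higher; in CD45- cells, the brain metallothionein Mt3 and the receptor Tfrc were higher. Of 9 genes tested 6 were called, 4 higher and 2 lower in CD45+ cells, against 46.1% of all 19488 genes tested.

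Of the 3 metallothioneins, Mt3 was called between the sorts, lower in CD45+ cells, and Mt1 and Mt2 were not. Mt3 stood at 3.24, 2.88 and 5.57 CPM in CD45+ cells (3.90 ± 1.46, n = 3) and at 89.4, 74.4 and 56.6 CPM in CD45- cells (73.4 ± 16.4, n = 3). The groups did not overlap, and Mt3 was lower in CD45+ cells of 3 of 3 tumors, with a log2 difference of -3.92 (SE 0.34, edgeR adjusted p = 0.000154). Mt2 stood at 65.0, 74.1 and 104 CPM in CD45+ cells and at 208, 195 and 140 CPM in CD45- cells. These groups did not overlap either, but the log2 difference of -0.80 (SE 0.28) missed the threshold, with an edgeR adjusted p = 0.0516. Mt2 was called without the late tumor (-1.16, edgeR adjusted p = 0.0149), without the tumor block (-0.82, adjusted p = 0.0386) and under 4 other settings given in the closing section. Mt1, at 416, 345 and 610 CPM in CD45+ cells and 666, 510 and 450 CPM in CD45- cells, overlapped between sorts. Its log2 difference was 0.09 (SE 0.30, edgeR adjusted p = 0.821) and took the other sign without the late tumor (-0.25). The sign also depended on the scaling, as given in the closing section. In CPM, the mean of Mt1 was 457 in CD45+ and 542 in CD45- cells, with CD45+ the higher in 1 of 3 tumors.

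The ferritin chains parted. Ftl1 stood at 3326, 3701 and 4368 CPM in CD45+ cells (3798 ± 528, n = 3) and at 875, 853 and 969 CPM in CD45- cells (899 ± 61.5, n = 3). It was 5.42-fold higher in CD45+ cells, without overlap, with a log2 difference of 2.44 (SE 0.29, edgeR adjusted p = 0.000478). Fth1 stood at 2909, 4629 and 3583 CPM in CD45+ cells and at 8372, 5426 and 3761 CPM in CD45- cells. Its CD45- level was the higher in each tumor, by a margin that was smallest in the late tumor, and the groups overlapped. The log2 difference of Fth1 was -0.23 (SE 0.39, edgeR adjusted p = 0.655) and became 0.30 without the early tumor.

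The genes of uptake, export and haem breakdown were called with groups apart, but the share of all genes with groups apart is not given. Hmox1 stood at 291, 165 and 387 CPM in CD45+ cells and at 56.9, 55.9 and 61.3 CPM in CD45- cells, a log2 difference of 2.56 (SE 0.27, edgeR adjusted p = 0.000314). Slc11a1 stood at 109, 156 and 148 CPM in CD45+ cells and at 9.01, 6.10 and 1.79 CPM in CD45- cells, a log2 difference of 5.14 (SE 0.54, edgeR adjusted p = 0.000401); it was 5.89 without the early and 4.49 without the late tumor. In CD45- cells, 79.5%, 52.5% and 21.1% of the Slc11a1 UMIs came from cells of the microglia-like class that had passed the CD45- gate.

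Slc40a1 stood at 84.5, 33.6 and 40.9 CPM in CD45+ cells and at 13.7, 13.4 and 5.76 CPM in CD45- cells, a log2 difference of 2.62 (SE 0.31, edgeR adjusted p = 0.000515). Tfrc went the other way, at 13.05, 14.6 and 12.8 CPM in CD45+ cells and 47.3, 37.8 and 36.0 CPM in CD45- cells, a log2 difference of -1.21 (SE 0.22, edgeR adjusted p = 0.00326). Exporter and receptor were thus each higher in the opposite sort. Fits restricted to run 2 or run 3, which each held both sorts, gave 2.49 and 2.38 for Ftl1, 2.82 and 2.26 for Slc40a1 and -1.18 and -1.25 for Tfrc on the log2 scale. Without scaling factors the median log2 difference of all genes moved from -0.05 to -0.41, and the share of called genes that were higher in CD45+ cells moved from 44.1% to 28.6%; the 6 called members kept their direction and call. In these sums, more cells of a class and more RNA per cell cannot be told apart, and the class levels below bear on that.

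**Figure D1:**
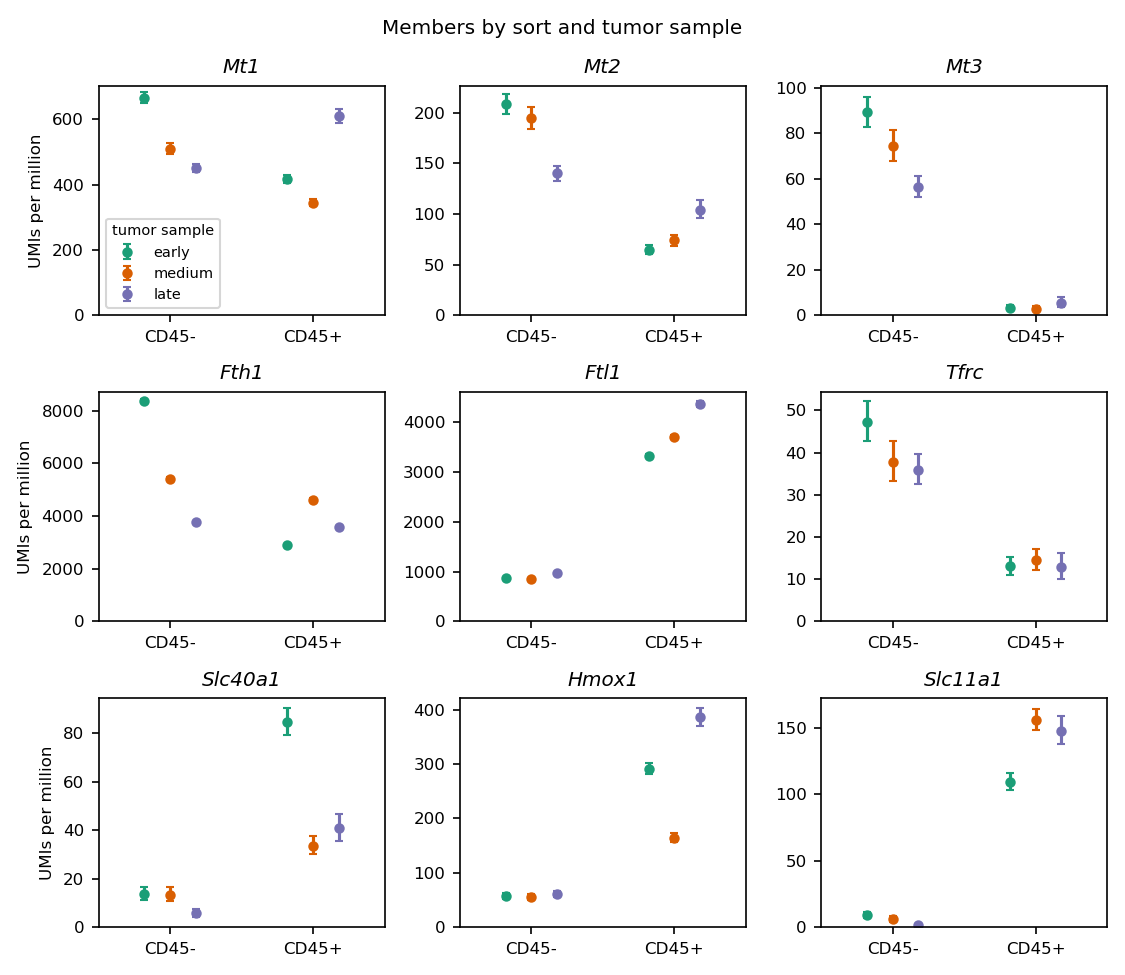
Level of each of the 9 genes (CPM, linear axes that start at 0 and differ between panels) in the CD45- and CD45+ sums of the early, medium and late tumor samples, 1 point per tumor sample and sort, with bars for the 95% exact Poisson interval, which covers counting error only. The CD45+ points lie above the CD45- points for Ftl1, Slc40a1, Hmox1 and Slc11a1 and below them for Mt2, Mt3 and Tfrc, and the points of Mt1 and Fth1 overlap.

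Ftl1 counts were shared with a processed copy. Ftl1-ps1 held 76277 UMIs against 118399 for Ftl1, or 64.4%, and its transcript held 756 of the 1389 31-base words of the Ftl1 transcripts (54.4%). The ratio of Ftl1-ps1 to Ftl1 ranged from 0.523 to 1.07, with a median of 0.669, over 57 sums of a class, sort and tumor sample. It was 0.523 to 0.682 in the early sums, 0.718 to 0.831 in the medium CD45- sums and 0.599 to 0.627 in the medium CD45+ sums. Small changes of Ftl1 between sums of different tumors or sorts are therefore uncertain. The Fth1 copy Gm6977 held 2.46% as many UMIs as Fth1, and Gm45774, which lies antisense to Mt2, held 575 UMIs. Adding the counts of the look-alike genes changed no call of a member.

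**Figure D2:**
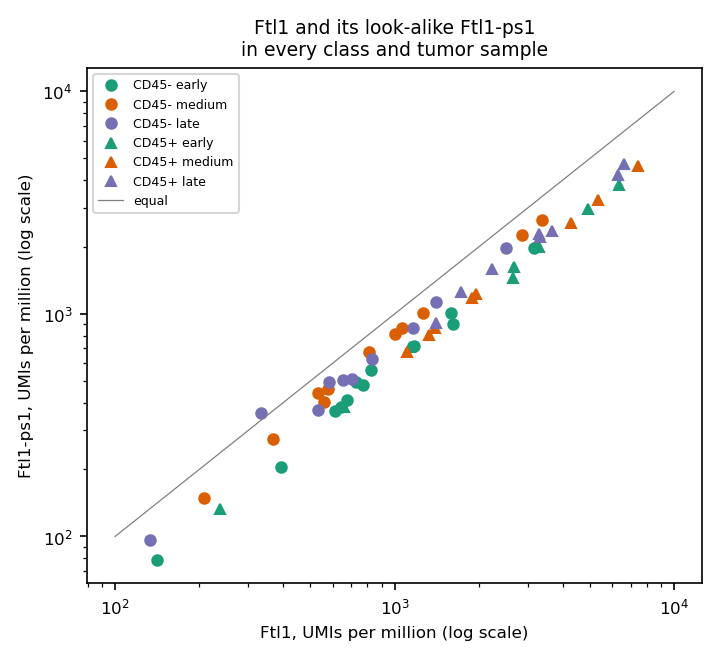
Level of the copy Ftl1-ps1 against the level of Ftl1 (both in CPM, log axes) in 57 sums of a class, sort and tumor sample, with circles for CD45- sums, triangles for CD45+ sums, 1 color per tumor sample and a line where both levels are equal. Relative to Ftl1, the early sums lie lower (ratios of 0.523 to 0.682) than the medium CD45- sums (0.718 to 0.831).

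Among the CD45- classes measured in all 3 tumors, the metallothioneins were highest in astrocyte-like cells and Fth1 in oligodendrocyte-like cells. Ependymal-like cells, which formed a sum in the early tumor only, held more of each metallothionein than the early astrocyte-like cells, with Mt1 at 5005 against 3030 CPM. Classes were named from marker lists that held none of the 9 genes, and the 9 genes were kept out of the clustering. Of 9 members tested, 4 were called between astrocyte-like and oligodendrocyte-like cells, 3 higher and 1 lower in astrocyte-like cells, against 27.9% of all genes. The groups of all 4 were apart, but the share of all genes with groups apart is not given.

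Mt1 stood at 3030, 2894 and 3957 CPM in astrocyte-like cells (3294 ± 578, n = 3, from 85, 56 and 27 cells) and at 465, 359 and 300 CPM in oligodendrocyte-like cells. The log2 difference was 2.69 (SE 0.32, edgeR adjusted p = 6.82e-09). Mt2 stood at 1735, 1898 and 2288 CPM in astrocyte-like cells (1974 ± 284, n = 3) and at 44.9, 24.1 and 14.0 CPM in oligodendrocyte-like cells, a log2 difference of 5.76 (SE 0.43, edgeR adjusted p = 7.66e-14) that was 6.35 without the early tumor. Mt3 stood at 435, 710 and 620 CPM (588 ± 140, n = 3) against 7.39, 13.2 and 6.997 CPM, a log2 difference of 5.56 (SE 0.43, edgeR adjusted p = 1.48e-13). For each of the 3 genes, astrocyte-like cells had the highest mean among the classes measured in all 3 tumors, and their lowest tumor lay above the highest tumor of the class next in order.

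The order below the astrocyte-like cells differed by gene. For Mt1, border or perivascular macrophage-like cells of the CD45+ sort (1829 ± 608 CPM, n = 3), endothelial-like cells (997 ± 195) and fibroblast-like cells (801 ± 236) followed, and each overlapped with its neighbour in this order. For Mt2, endothelial-like (537 ± 225 CPM), fibroblast-like (442 ± 117) and border or perivascular macrophage-like cells (332 ± 95.8) followed and overlapped. For Mt3, choroid plexus-like cells came next at 230, 234 and 419 CPM, above the oligodendrocyte progenitor-like cells at 93.5, 154 and 95.8 CPM without overlap. Microglia-like cells of the CD45+ sort held 6, 1 and 0 Mt3 UMIs, so that Mt3 was near the counting floor there. The ratio of Mt2 to Mt1 UMIs was 0.573, 0.656 and 0.578 in astrocyte-like cells and 0.0992, 0.154 and 0.0555 in microglia-like cells; both are 3′-end UMI counts, not corrected for length.

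**Figure D3:**
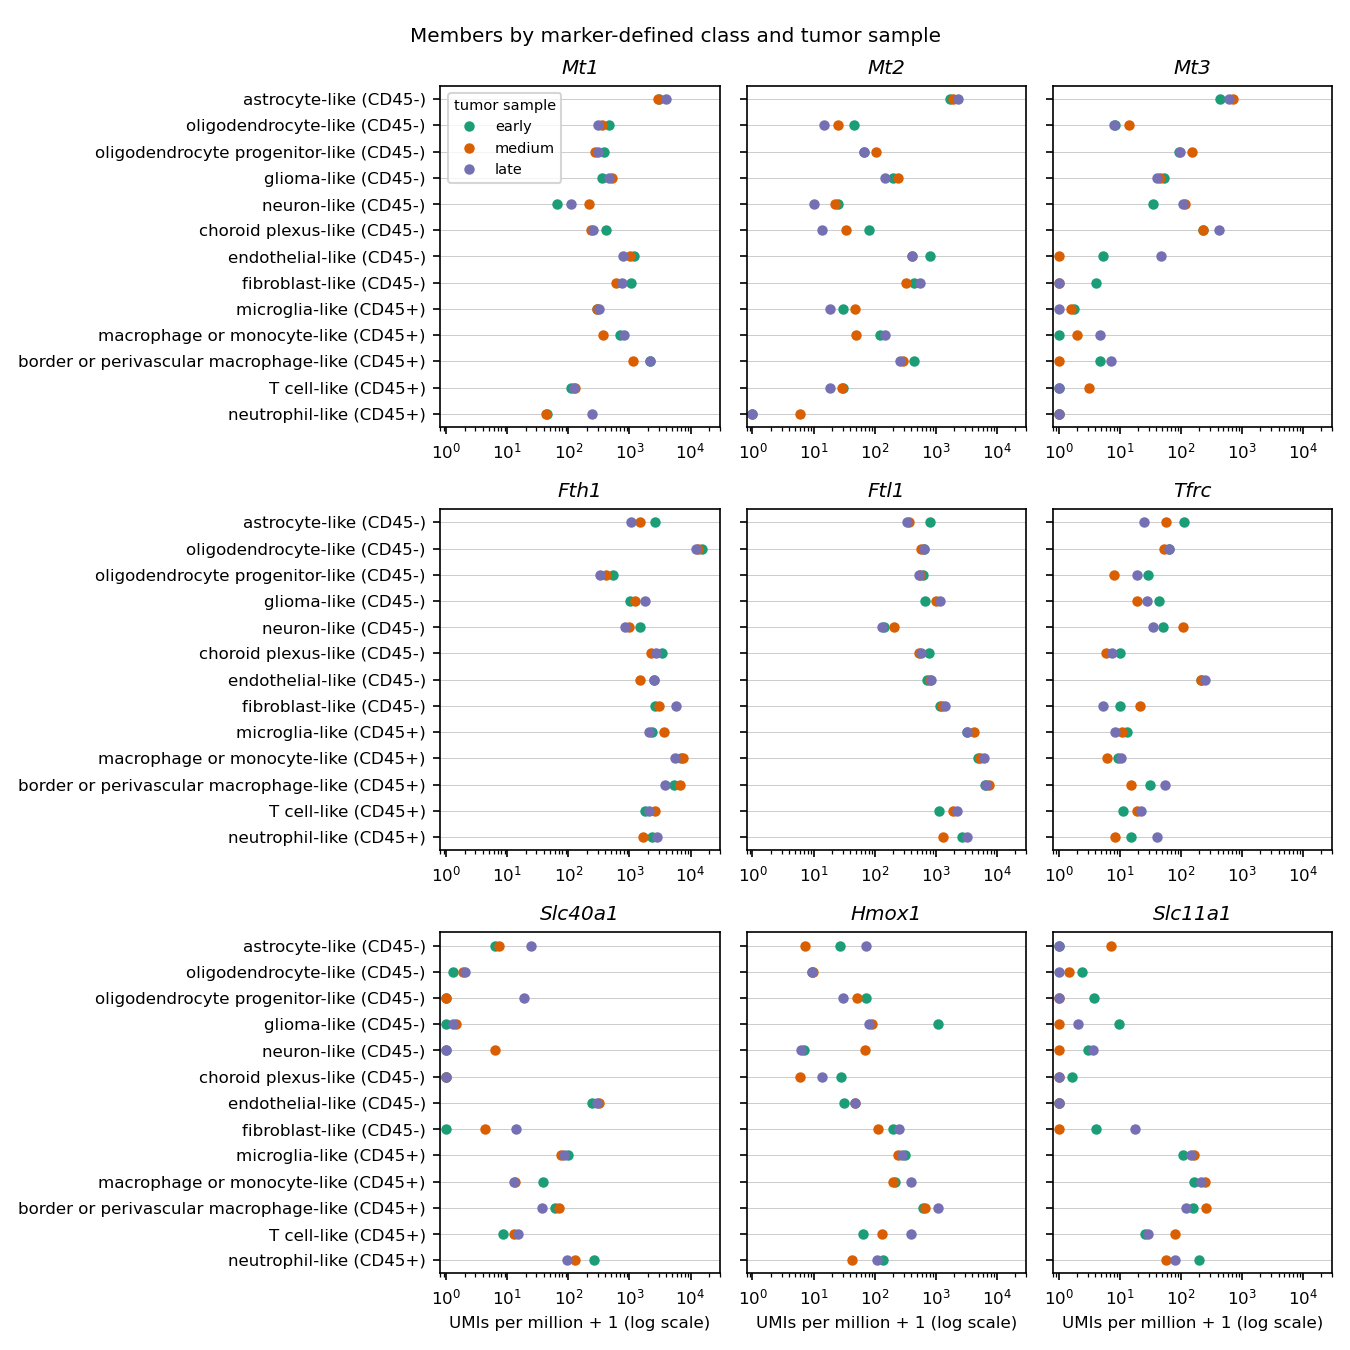
Level of each gene (CPM + 1, log axis) in 13 marker-defined classes, each in the sort named beside it, 1 point per tumor sample. By the mean of the 3 points, metallothioneins are highest in astrocyte-like cells, Fth1 in oligodendrocyte-like cells, Tfrc and Slc40a1 in endothelial-like cells, and Ftl1, Hmox1 and Slc11a1 in macrophage-like classes, while the single early glioma-like point of Hmox1 (1079 CPM) lies close to the highest border or perivascular macrophage-like one (1103 CPM).

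Fth1 stood at 15578, 13130 and 12176 CPM in oligodendrocyte-like cells (13628 ± 1755, n = 3), above every other class measured in all 3 tumors without overlap. Astrocyte-like cells held 2611, 1475 and 1049 CPM, a log2 difference of -3.40 (SE 0.34, edgeR adjusted p = 2.94e-10). Oligodendrocyte-like cells supplied 83.9%, 81.2% and 61.2% of all CD45- Fth1 UMIs from 45.1%, 33.6% and 18.9% of the CD45- UMIs, so the lower CD45- Fth1 level of the late tumor stood beside a smaller share of these cells. The 51 oligodendrocyte-like cells found in the early CD45+ sort held Fth1 at 13965 CPM. Ftl1 stood at 641, 580 and 653 CPM in oligodendrocyte-like cells and 823, 367 and 334 CPM in astrocyte-like cells (log2 difference -0.67, edgeR adjusted p = 0.0976); without the early tumor its difference was called, in the direction of Fth1 (-1.19, edgeR adjusted p = 0.00557). The ratio of Fth1 to Ftl1 UMIs was 24.3, 22.6 and 18.7 in oligodendrocyte-like, 3.17, 4.02 and 3.14 in astrocyte-like and 0.706, 0.871 and 0.630 in microglia-like cells. Oligodendrocyte progenitor-like cells had the lowest mean Fth1 among these classes, at 538, 411 and 330 CPM, below the neuron-like cells without overlap.

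Tfrc was not called between astrocyte-like and oligodendrocyte-like cells. It stood at 63.0, 52.7 and 62.0 CPM in oligodendrocyte-like cells and rested on 21, 9 and 1 UMIs in astrocyte-like cells, with a log2 difference of -0.12 (edgeR adjusted p = 0.883). Slc40a1 held 1, 1 and 1 UMIs in astrocyte-like cells and 1, 2 and 2 in oligodendrocyte-like cells, so exporter transcripts were at the counting floor in both classes. Its log2 difference of 3.08 had an edgeR adjusted p = 0.0760, and it passed the threshold in DESeq2 (adjusted p = 0.00726) and without scaling factors (adjusted p = 0.0471). Without scaling factors, the median log2 difference of all genes between these classes moved from -0.16 to 0.22, and the 4 members kept their call and direction.

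The glioma-like class (43, 357 and 1081 CD45- cells in 3 clusters) was low in Fth1 and held metallothioneins well below astrocyte-like cells. The clusters were named over all tumors together, with a human EGFR UMI in 79.3%, 83.7% and 89.0% of their CD45- cells, but the tumors differed. In the early tumor 4 of 43 glioma-like cells held an EGFR UMI (9.30%), against 85.7% of the medium and 85.4% of the late ones. The early glioma-like sum thus went against the class name, and values without the early tumor are given beside those of the 3 tumors. Against oligodendrocyte-like cells 5 of 9 members were called (3 higher, 2 lower), against 35.3% of all genes. Against astrocyte-like cells 6 of 9 were called (1 higher, 5 lower), against 16.8% of all genes. Without the early tumor 5 of 9 were called against oligodendrocyte-like cells, and 4 of 9 against astrocyte-like cells (1 higher, 3 lower). Without scaling factors 6 and 7 members were called, Ftl1 being the one added in each; the median log2 difference of all genes moved from 0.04 to 0.51 against oligodendrocyte-like cells and from 0.15 to 0.23 against astrocyte-like cells, and the share of called genes that were higher moved from 55.7% to 76.1% in the former.

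Mt1 stood at 360, 524 and 459 CPM in glioma-like cells, 2.86 lower than astrocyte-like cells on the log2 scale (log2 difference -2.86, SE 0.32, edgeR adjusted p = 6.86e-09) and not called against oligodendrocyte-like cells (-0.17, edgeR adjusted p = 0.721). The sign of the latter depended on the scaling and on the early tumor, since it was 0.34 without scaling factors and 0.17 without the early tumor, and the level in CPM was the higher in glioma-like cells of 2 of 3 tumors. Mt2 stood at 197, 240 and 144 CPM, between the glial classes. Its log2 difference was -3.37 (SE 0.39, edgeR adjusted p = 1.40e-08) against astrocyte-like and 2.39 (SE 0.38, edgeR adjusted p = 2.54e-06) against oligodendrocyte-like cells. Mt3 stood at 51.4, 44.0 and 39.7 CPM, likewise between them, with log2 differences of -3.93 (SE 0.42, edgeR adjusted p = 2.51e-09) and 1.62 (SE 0.42, edgeR adjusted p = 0.00174). Without the early tumor the differences from astrocyte-like cells were -2.76 for Mt1, -3.44 for Mt2 and -4.02 for Mt3, those from oligodendrocyte-like cells were 2.91 for Mt2 and 1.63 for Mt3, and each was called.

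Fth1 stood at 1019, 1216 and 1771 CPM in glioma-like cells, -3.79 (SE 0.35, edgeR adjusted p = 2.08e-11) against oligodendrocyte-like cells and -0.38 (edgeR adjusted p = 0.467) against astrocyte-like cells on the log2 scale. Without the early tumor these were -3.50 (called) and 0.18 (not called), and the Gpr17 cluster described below was by itself lower than astrocyte-like cells (-1.37, edgeR adjusted p = 0.00109). Oligodendrocyte markers summed to 2012, 710 and 662 CPM in these glioma-like sums, and their part in the Fth1 values was not tested. Ftl1, at 676, 1001 and 1168 CPM, was not called against either (0.16 and 0.83, the latter with an edgeR adjusted p = 0.0579). Without scaling factors both passed the threshold (0.65, edgeR adjusted p = 0.0420, and 0.90, edgeR adjusted p = 0.0213), and the difference from astrocyte-like cells also did so without the early tumor (1.60, edgeR adjusted p = 0.000480), without a filter on low counts (1.10) and with the Gpr17 cluster left out (1.41). Late glioma-like cells supplied 75.8% of the late CD45- Ftl1 UMIs from 62.9% of the late CD45- UMIs. Tfrc stood at 42.8, 18.3 and 26.9 CPM, lower than in oligodendrocyte-like cells by a log2 difference of -1.63 (SE 0.40, edgeR adjusted p = 0.00111) that was -1.72 without the early tumor. Its difference of -1.51 (SE 0.50, edgeR adjusted p = 0.0321) from astrocyte-like cells was lost without the early (-1.07), the medium (-1.35) or the late tumor (-1.92), without a filter on low counts (-1.24) and with the Gpr17 cluster left out (-1.50). Slc40a1 held 0, 1 and 2 UMIs in glioma-like cells, and its call against astrocyte-like cells (log2 difference -4.43, edgeR adjusted p = 0.0255) rested on 3 UMIs in each class and was lost without any 1 of the tumors (adjusted p 0.0730 to 0.234). The ratio of the summed CPM was 0.0431 (95% interval 0.00577 to 0.322).

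Glioma-like clusters differed in these genes. The largest, led by Gpr17, Tnr and Sox6, was present in all 3 tumors, whereas a cluster led by Itga8, Thbs2 and Tnc came mostly from the late tumor and a cluster led by AI506816 and Apobec3 from the medium tumor. In late CD45- cells, Fth1 stood at 536 CPM (interval 509 to 564) in the Gpr17 cluster and 2634 CPM (2584 to 2685) in the Itga8 cluster. Mt2 stood at 86.6 CPM (75.9 to 98.3) and 185 CPM (172 to 199) in the same clusters, while Mt3 stood at 68.7 CPM (59.2 to 79.2) and 19.4 CPM (15.3 to 24.3). In medium CD45- cells, the Gpr17 cluster held Fth1 at 732 CPM and the Apobec3 cluster at 1509 CPM. Mt2 was 114 and 432 CPM and Mt3 70.1 and 7.12 CPM in these clusters. In each of these tumors the Gpr17 cluster was thus the lower in Fth1 and Mt2 and the higher in Mt3; with 1 tumor sample for each of the other clusters, there was no test. The call of Mt3 against oligodendrocyte-like cells was lost with the Gpr17 cluster left out (log2 difference 0.36, edgeR adjusted p = 0.631).

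Hmox1 in glioma-like cells stood at 1079, 89.2 and 80.5 CPM, and the early value came from 1 cell. That cell held 123 of the 126 Hmox1 UMIs of the 43 early cells, and the level without it was 27.7 CPM. The richest cell held 92 of 205 UMIs in the medium and 49 of 536 UMIs in the late glioma-like cells. The log2 difference of Hmox1 from oligodendrocyte-like cells, which held 8.49, 8.63 and 8.50 CPM, was 4.44 (SE 0.79, edgeR adjusted p = 0.000144). It was 2.77 when the cell richest in Hmox1 was left out of each sum, stood at 2.88 without the early, 5.06 without the medium and 5.13 without the late tumor, and was called in each of these. The difference from astrocyte-like cells, 3.51 (edgeR adjusted p = 0.0271), set 867 UMIs against 9, was 4.52 without the late tumor and was lost without the early tumor (1.96, edgeR adjusted p = 0.164) and with the Gpr17 cluster alone (0.95, edgeR adjusted p = 0.407).

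The same concentration was seen in other classes. The richest cell held 87 of 123 Hmox1 UMIs in medium T cell-like cells and 83 of 111 in late ones, and the levels of 131 and 388 CPM became 38.4 and 101 CPM without it. In late fibroblast-like cells 1 cell held 45 of 58 UMIs. In early microglia-like cells, by contrast, the richest cell held 17 of 2511 UMIs. Values of Hmox1 in small classes therefore rest on few cells.

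**Figure D4:**
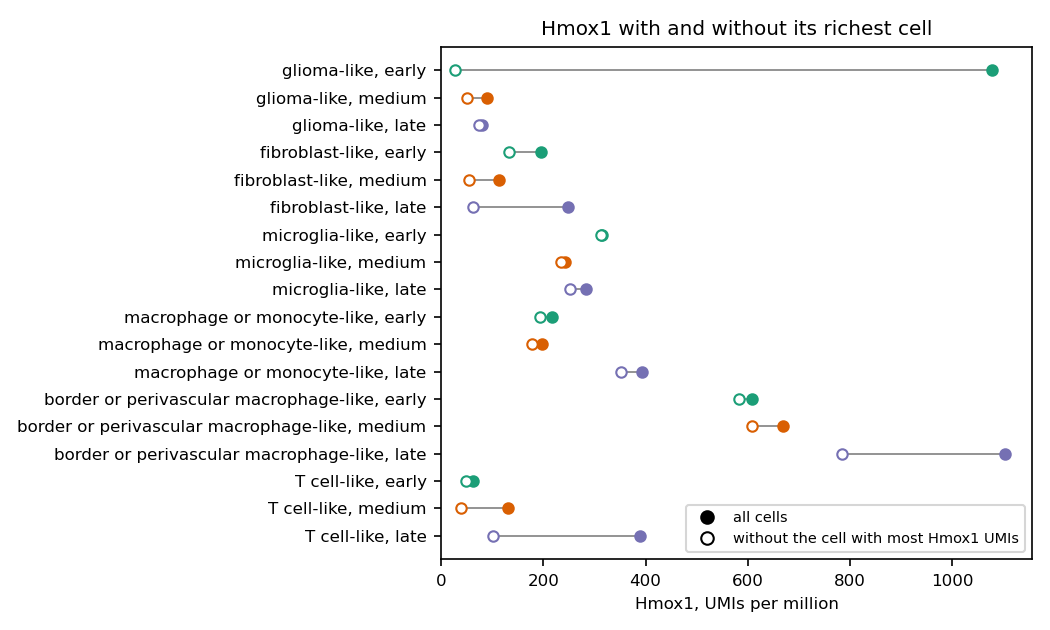
Hmox1 level (CPM) in class sums of each tumor sample with every cell and without the cell richest in Hmox1. The early glioma-like sum moves from 1079 to 27.7 and the late T cell-like sum from 388 to 101.

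Endothelial-like cells (153, 125 and 67 cells) carried both the iron receptor and the iron exporter. Against oligodendrocyte-like cells 5 of 9 members were called (4 higher, 1 lower), against 34.2% of all genes. Tfrc stood at 214, 216 and 249 CPM (226 ± 19.3, n = 3), the highest mean of the classes measured in all 3 tumors and apart from the next. Its log2 difference was 1.59 (SE 0.38, edgeR adjusted p = 0.000915). Slc40a1 stood at 244, 311 and 295 CPM (283 ± 34.8, n = 3, from 57, 66 and 38 UMIs) against 5 UMIs in all oligodendrocyte-like cells. The log2 difference was 8.19 (SE 0.65, edgeR adjusted p = 3.18e-13), and the ratio of the summed CPM was 440 (interval 185 to 1374). Endothelial-like cells supplied 51.4%, 75.0% and 62.3% of the CD45- Slc40a1 UMIs. Next in order came neutrophil-like cells of the CD45+ sort at 257, 128 and 93.2 CPM, which overlapped with them, and microglia-like cells at 97.9, 74.6 and 85.2 CPM.

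Erythroid markers, from a lineage that also uses Tfrc, summed to 23639, 1388 and 1321 CPM in these endothelial-like cells, and their part in the Tfrc level was not tested. Microglia markers, Sparc among them, summed to 2992, 3590 and 4358 CPM there. This sum is given without a split by gene, so how much of it was microglial RNA is not known. Its part in the Slc40a1 level was not tested. Slc11a1 held 0 UMIs in each tumor. Slc40a1 lay above its level in microglia-like cells in 3 of 3 tumors (3.03-fold in summed CPM, 2.55 to 3.58).

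Mt2 stood at 796, 409 and 404 CPM in endothelial-like cells, 3.95 above oligodendrocyte-like cells on the log2 scale (SE 0.40, edgeR adjusted p = 1.50e-10). Mt1 stood at 1182, 1016 and 792 CPM and differed by 1.08 (SE 0.30, edgeR adjusted p = 0.00437). The Mt1 call was lost without the medium (1.02, adjusted p = 0.0805) or the late tumor (1.13, adjusted p = 0.0537) and without a filter on low counts (0.87, adjusted p = 0.0527). Fth1 stood at 2564, 1515 and 2556 CPM, a log2 difference of -2.98 (SE 0.34, edgeR adjusted p = 1.87e-09). Hmox1, at 30.0, 47.1 and 46.6 CPM, was not called (1.89, edgeR adjusted p = 0.161), but it was called, higher, in 5 refits: in DESeq2 (2.13, adjusted p = 0.0448), without the early tumor (2.13, adjusted p = 0.0320), without the top 5% of doublet scores (2.02, adjusted p = 0.00329), without the cell richest in Hmox1 (1.68, adjusted p = 0.0331) and without a filter on low counts (1.68, adjusted p = 0.0207). Ftl1 was not called at 728, 809 and 831 CPM (0.00).

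Among myeloid cells of the CD45+ sort, macrophage or monocyte-like cells and border or perivascular macrophage-like cells (border macrophages below) held more ferritin and metallothionein transcripts than microglia-like cells, and the macrophage or monocyte-like cells held fewer exporter transcripts. Of 8 members tested (Mt3 did not pass the filter on low counts), 5 were called between macrophage or monocyte-like cells (330, 1729 and 695 cells) and microglia-like cells (3885, 806 and 959 cells), 4 higher and 1 lower, against 18.5% of all genes. In the macrophage or monocyte-like class, 605 cells formed a cluster led by Xcr1 and Itgae, which are on the dendritic cell marker list. Ccr2 and Ly6i, of the macrophage or monocyte list, were also among its leading genes. The part of this cluster in the contrast was not tested. The member count was 3 without the early tumor, 2 without the late tumor and 3 without the tumor block, which also moved the calls over all genes from 1969 to 1203. Between border or perivascular macrophage-like cells (248, 127 and 70 cells) and microglia-like cells, 6 of 8 were called, each higher, against 13.6% of all genes.

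Fth1 stood at 2323, 3714 and 2070 CPM in microglia-like cells, 6877, 7479 and 5631 CPM in macrophage or monocyte-like cells and 5426, 6742 and 3807 CPM in border macrophages. The log2 difference from microglia-like cells was 1.43 (SE 0.18, edgeR adjusted p = 5.68e-06) for macrophage or monocyte-like cells and 1.01 (SE 0.18, edgeR adjusted p = 0.000305) for border macrophages. Oligodendrocyte markers, whose cells are rich in Fth1, summed to 79.1 CPM or less in each of these macrophage sums. The part of these markers in the Fth1 values was not tested.

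Ftl1 stood at 3290, 4265 and 3285 CPM in microglia-like cells, 4935, 5331 and 6286 CPM in macrophage or monocyte-like cells and 6348, 7414 and 6603 CPM in border macrophages. Over the classes measured in all 3 tumors, Ftl1 was highest in border macrophages, then macrophage or monocyte-like cells, then microglia-like cells, and no 2 neighbours of these 3 overlapped, although the lowest border macrophage value lay close to the highest macrophage or monocyte-like one. With the counts of its copies added, the levels of border macrophages (10350, 12212 and 11616 CPM) and macrophage or monocyte-like cells (8083, 8756 and 10647 CPM) overlapped. For border macrophages the log2 difference was 0.93 (SE 0.20, edgeR adjusted p = 0.00286). For macrophage or monocyte-like cells it was 0.70 (SE 0.20, edgeR adjusted p = 0.0174), and this call was lost without the tumor block (adjusted p = 0.0658), without the late tumor (adjusted p = 0.171), in DESeq2 (adjusted p = 0.0707) and without scaling factors (adjusted p = 0.140).

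Mt1 stood at 297, 298 and 319 CPM in microglia-like cells, 696, 372 and 814 CPM in macrophage or monocyte-like cells and 2174, 1127 and 2187 CPM in border macrophages. The log2 difference of border macrophages was 2.55 (SE 0.31, edgeR adjusted p = 2.82e-05). Mt2, at 29.4, 46.0 and 17.7 CPM in microglia-like and 441, 292 and 262 CPM in border macrophages, differed by 3.47 (SE 0.41, edgeR adjusted p = 9.86e-06). Macrophage or monocyte-like cells differed less, by 1.07 for Mt1 (SE 0.30, edgeR adjusted p = 0.0190) and, with Mt2 at 124, 49.2 and 147 CPM, by 1.89 for Mt2 (SE 0.39, edgeR adjusted p = 0.00233). The Mt1 call was lost without the early (0.93, adjusted p = 0.0801) or the late tumor (0.89, adjusted p = 0.0689) and without the tumor block (adjusted p = 0.0506), scaling factors (adjusted p = 0.0508) or the top 5% of doublet scores (adjusted p = 0.144). The Mt2 call was lost without the early (1.73, adjusted p = 0.0608) or the late tumor (1.21, adjusted p = 0.0762), and the difference was 2.70 without the medium tumor.

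Slc40a1 ran against the ferritins. It stood at 97.9, 74.6 and 85.2 CPM in microglia-like cells and at 37.3, 12.4 and 11.9 CPM in macrophage or monocyte-like cells, a log2 difference of -2.17 (SE 0.31, edgeR adjusted p = 1.86e-05). Border macrophages held 58.4, 70.4 and 36.5 CPM (log2 difference -0.63, edgeR adjusted p = 0.265). Microglia-like cells supplied 85.7%, 36.7% and 74.5% of the CD45+ Slc40a1 UMIs, and the CD45+ level was lowest in the medium tumor, in which macrophage or monocyte-like cells were most numerous.

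Hmox1 stood at 314, 242 and 284 CPM in microglia-like cells, 218, 198 and 394 CPM in macrophage or monocyte-like cells and 609, 669 and 1103 CPM in border macrophages. Border macrophages were higher by 1.43 on the log2 scale (SE 0.35, edgeR adjusted p = 0.0114), a call that was lost without the medium tumor (1.39, adjusted p = 0.231) and without the top 5% of doublet scores (1.39, adjusted p = 0.0764) and kept without the cell richest in Hmox1 (1.31). In the late border macrophages, Hmox1 was 418 CPM in run 2 and 1561 CPM in run 3, and 1 cell held 54 of 181 UMIs. Macrophage or monocyte-like cells did not differ detectably from microglia-like cells (log2 difference -0.07, edgeR adjusted p = 0.924). Slc11a1 was called in neither contrast, at 110, 164 and 147 CPM in microglia-like, 162, 248 and 210 CPM in macrophage or monocyte-like and 160, 261 and 122 CPM in border macrophages (0.67 with adjusted p = 0.148 and 0.39 with adjusted p = 0.523), although the former passed the threshold without a filter on low counts (0.68, adjusted p = 0.0465). Tfrc was low in all 3 classes. It was higher in border macrophages, at 30.2, 14.1 and 54.8 CPM against 12.1, 9.94 and 7.28 CPM in microglia-like cells (log2 difference 1.60, SE 0.49, edgeR adjusted p = 0.0288, from 29 and 127 UMIs), and the call was lost without the early (1.77, adjusted p = 0.158) or the late tumor (1.09, adjusted p = 0.303), without a filter on low counts (1.45, adjusted p = 0.0596) and without the cell richest in Hmox1 (1.50, adjusted p = 0.0557).

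**Figure D5:**
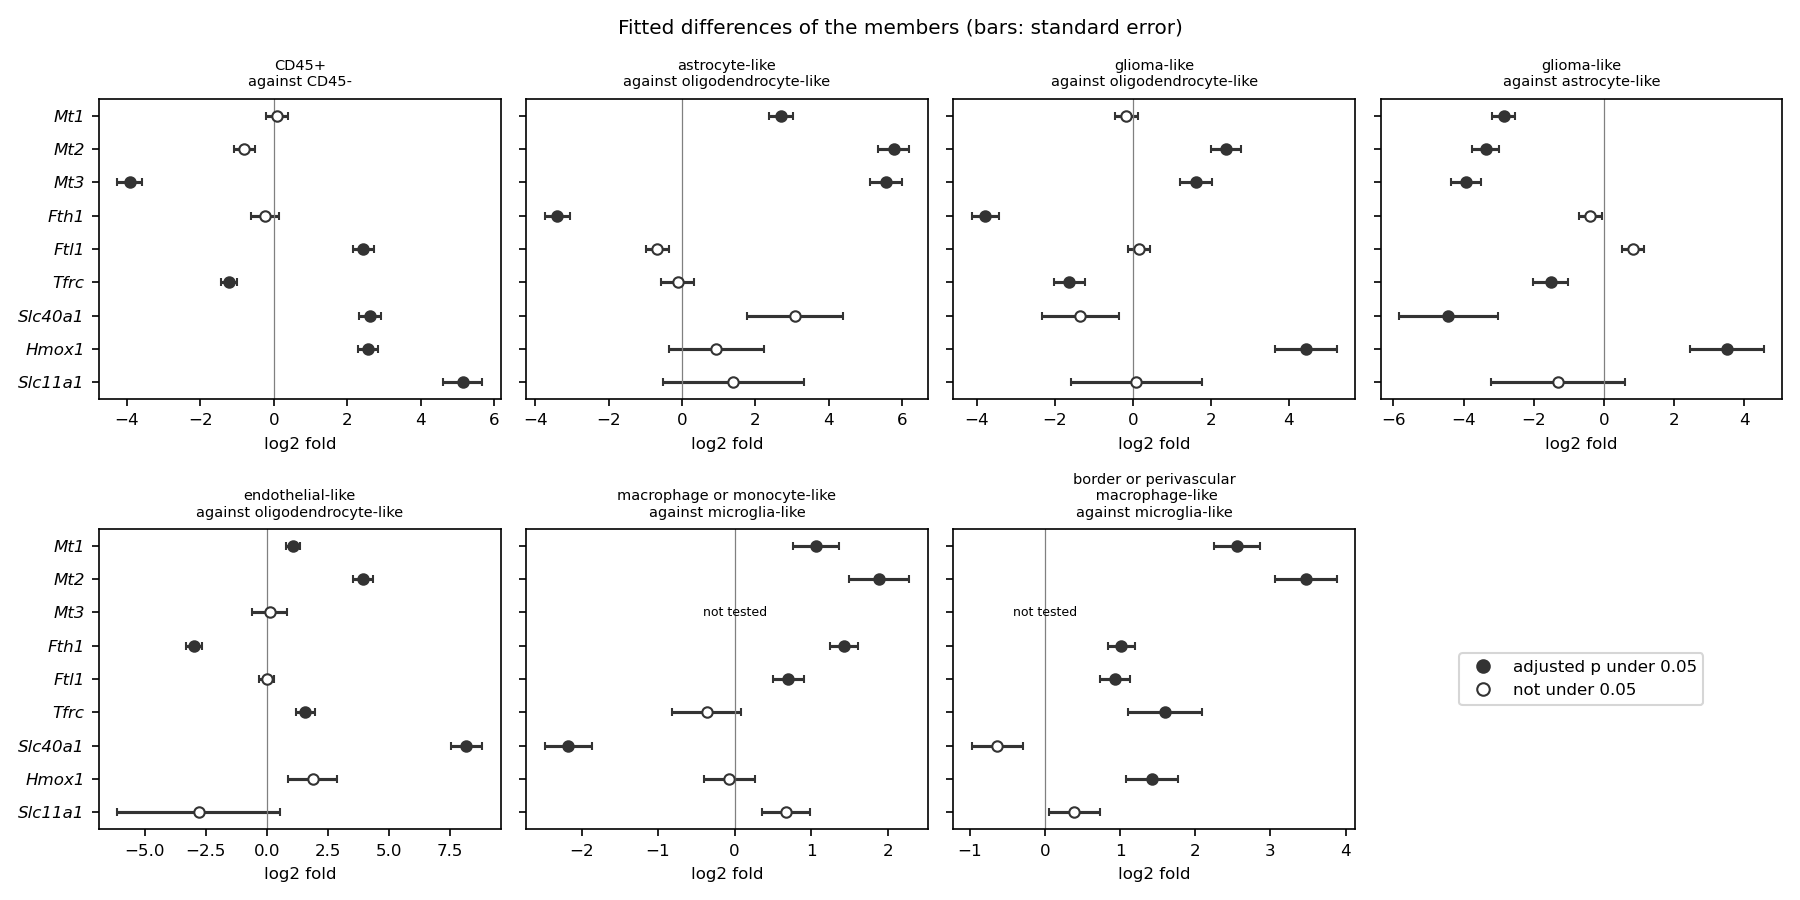
Log2 difference of each gene in the tested contrasts, with bars of 1 standard error and filled points for adjusted p under 0.05 in edgeR's quasi-likelihood test. Fth1 lies at -3.40 and -3.79 for astrocyte-like and glioma-like against oligodendrocyte-like cells and at 1.43 for macrophage or monocyte-like against microglia-like cells.

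Stages could be compared within classes, without a test, since each stage was 1 tumor sample. Genes with at least 10 UMIs over both sums were counted when the late level lay 2-fold or more from the early one. None of 8 members did so in microglia-like cells (11.0% of all genes) and 0 of 8 in border macrophages (26.8%). In macrophage or monocyte-like cells 1 of 8 did (21.0% of all genes), Slc40a1, whose log2 ratio was -1.64 (interval -2.47 to -0.84). In endothelial-like cells 0 of 7 did, against 28.9% of all genes.

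In astrocyte-like cells 3 of 6 members lay 2-fold or more lower in the late tumor, against 38.7% of all genes in either direction. These were Fth1 (log2 ratio -1.30), Ftl1 (-1.26) and Tfrc (-1.67, interval -7.60 to 0.41, with 1 late UMI). The oligodendrocyte markers in the same astrocyte-like sums were 1189, 1183 and 524 CPM, lowest in the late tumor as Fth1 was, and their part in the Fth1 values was not tested. In oligodendrocyte-like cells 1 of 7 did (12.6% of all genes), Mt2, with a log2 ratio of -1.66; 1 cell held 63 of its 164 early UMIs. In glioma-like cells, of which few held a transgene UMI in the early tumor, 1 of 7 did (43.8% of all genes), Hmox1, with a log2 ratio of -3.75 that rested on the cell described above and became 0.57 when the cells with the top 5% of doublet scores were left out.

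The wider pathways were counted from 8 lists for the CD45+ against CD45- contrast, in which the median log2 difference of all genes was -0.05 and 20.3% of all genes were called higher and 25.7% lower in CD45+ cells. Metallothionein and zinc genes were lower or not called, with 0 higher and 7 lower of 11 tested and a median of -0.86. The largest falls were those of Mt3, of Slc30a3 (-3.68), which loads zinc into synaptic vesicles, and of the zinc importer Slc39a12 (-2.67). Of 17 iron and haem uptake genes 5 were higher and 7 lower (median 0.28). The siderophore binder Lcn2 (9.69), Slc11a1 and the hemoglobin scavenger receptor Cd163 (3.85) were the most raised, and the metalloreductases Steap1 (-5.53) and Steap2 (-3.55) and the lipocalin receptor Slc22a17 (-2.53) the most lowered. Of 5 storage genes only Ftl1 was called (median -0.13). Of 5 export genes 2 were called, the ferroxidase Cp (2.71) and Slc40a1, each higher in CD45+ cells (median 0.59).

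Of 9 genes of iron sensing, 3 were higher and 3 lower (median -0.17). The transcription factors Nfe2l2 (2.13) and Bach1 (1.85), which drive and repress Hmox1, and the ligand Bmp2 (1.01) were higher, while Bmp6 (-3.95), which induces hepcidin, Neo1 (-3.34) and Fbxl5 (-0.64) were lower. Of 13 haem genes 5 were higher and 2 lower (median 0.32), with haptoglobin (Hp, 5.17) and biliverdin reductase B (Blvrb, 2.14) among the higher ones. The synthesis enzymes Cpox (-1.74) and Fech (-1.45) were lower, whereas another synthesis enzyme, Alas1 (1.28), was higher. Of 10 mitochondrial iron genes 3 were higher and 1 lower (median -0.27), among them the importer Slc25a37 (1.36) and Iscu (0.61) on the higher side, and Lyrm4 (-1.02) lower. Of 12 NRF2 targets 2 were higher, Pgd (1.66) and G6pdx (1.22), and 3 lower, Nqo1 (-4.85), Gclm (-1.06) and Slc7a11 (-0.82), with a median of 0.16. Called genes of these lists thus went in both directions except in the zinc, storage and export lists. The storage list held only 1 called gene and the export list 2, too few to show a common direction.

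Genes with the most similar pattern were sought over 51 sums of a class and tumor sample, among 11938 genes, by Pearson's r of log2(CPM + 10); sums share tumors and libraries, so r is a description. Mt1 and Mt2 were closest to each other (r = 0.89), apart from the antisense gene Gm45774 (0.92 with Mt2), and the astrocyte gap junction gene Gja1 followed Mt2 at 0.83. Mt3 was closest to Nwd1 (0.91), Kcnk1 (0.89) and Ppargc1a (0.89). Fth1 was closest to its copy Gm6977 (0.92), to Trf, the transferrin gene (0.81), and to Pdlim2 (0.75). Ftl1 was closest to its copies Ftl1-ps1 (0.99) and Gm15590 (0.89) and to Coro1b (0.88). Slc11a1 followed the macrophage genes Cd68, Mpeg1 and Cd300c2 (0.95 each), and Hmox1 followed the lysosomal gene Hexa (0.79). Slc40a1 followed the endothelial genes Arap3 (0.89) and Pdgfb (0.81), and Tfrc, the loosest, followed Ddc (0.68) and the endothelial genes Egfl7 (0.67) and Sox7 (0.66).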

How the data were processed

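The authors deposited 1 table of UMI counts for 20811 cells and 50262 genes, with an annotation that gives the stage and sort of each library. Each cell was matched to its library by the run and library barcode in its name. Per the labels and the study's methods, inDrop reads were processed with bcbio and RapMap against Ensembl 94 with transgenes added (the submitters' processing notes name mm10), and counts are not normalized; ambient RNA and doublet removal are described, but not whether they preceded deposit. Cells with at least 500 UMIs, at least 500 genes and at most 20% mitochondrial UMIs were kept (17894). Scrublet in scanpy 1.11.5 called 113 doublets of 17786 cells tested (0.635%; 2 libraries were too small to test), which were removed. Clusters (Leiden, leidenalg 0.10.2, resolution 1, 31 clusters) were built without 143 genes, among them the listed genes that are not markers. They were named from marker lists where at least 3 markers led, and 4 clusters with 553 cells stayed unnamed. The label "large" is called late here.

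Counts were summed per tumor sample and sort, or per tumor sample and class of at least 20 cells, and tested with edgeR 4.0.16 (R 4.3.3): TMM factors, filterByExpr, quasi-likelihood test, two-sided, Benjamini-Hochberg over all genes tested, with the tumor sample as a block, since both sorts and all classes of a number come from the same tumor sample. Deviations of same-numbered sums correlated at 0.368, 0.273 and 0.284 between sorts, and more weakly between classes, at medians of 0.104, 0.0391 and 0.0664 in the CD45- sort and 0.169, 0.169 and 0.102 in the CD45+ sort. The 9 classes of the CD45- sort and the 5 of the CD45+ sort entered 1 fit per sort. Each stage is 1 sample. With the tumor sample as a block, p-values measure how much the differences between sorts or classes varied over 3 tumors of different stages. In the fits by class, this spread was estimated from all classes of the sort together. Intervals are exact Poisson or conditional binomial at 95%. The test was checked on simulated data. DESeq2 1.42.0 and other settings were tried. The 9 members, the gene lists and the marker lists were chosen with earlier results of these data known. All 9 members are named. Of each list, up to 3 of the most raised and most lowered called genes are named, with Alas1 added among the haem genes. Python 3.11.15, pandas 2.3.3, numpy 2.4.6 and scipy 1.17.1 were used. An allele of the tumor genotype and some genes are not reported here.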

Additional observations from a re-analysis of the deposited data

How the results depend on the processing

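Counts of called genes and members stayed within 1.5 times the values given above in 162 of 174 comparisons. Genes and members of a refit were compared separately, and recounts of the members by stage were included, so there were fewer refits than comparisons. Direction was not part of this rule. For endothelial-like against oligodendrocyte-like cells, the share of called genes that were higher moved from 47.9% to 61.1% without TMM factors. Leaving out 1 tumor gave 2352 to 3542 calls for glioma-like against oligodendrocyte-like cells (3850 with all tumors), 829 to 1576 against astrocyte-like cells (1830), 1059 to 1455 for macrophage or monocyte-like (1969) and 740 to 1115 for border macrophage-like against microglia-like cells (1450), with fewer samples in each fit; members called for macrophage or monocyte-like cells were then 2 to 5 of 8. Without the tumor block, that is with no pairing, the macrophage or monocyte-like contrast gave 1203 calls and 3 called members, and without TMM factors 3 called members. The block changed no other call except those of Mt1 and Ftl1 in that contrast and of Mt2 between sorts.

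Of 37 called member values, 27 were called in every refit, and of 453 refits 422 kept the call, 31 lost it and 0 reversed. Mt2 between sorts passed the threshold without TMM factors (log2 difference -1.17), without a filter on low counts (-0.85), in run 3 alone (-1.02) and without the cell richest in Hmox1 (-0.84), the last chosen after seeing the data. Between classes, 21 member values were not called; of their 245 refits 15 were called, for 7 values, and 30 changed sign, for 12 values, with 0 both called and changed in sign. Between sorts, values that were not called and changed sign were Fth1 (-0.50 to 0.30 with 1 tumor left out) and Mt1 (-0.25 to 0.38 with 1 tumor left out, -0.27 without TMM factors and -0.019 in run 3 alone). The late to early ratio of Hmox1 in glioma-like cells changed sign without the top doublet scores (0.57). The early value of that ratio rested on the 1 cell described above. That cell held nearly all early Hmox1 UMIs, so the ratio could turn positive only with it among the cells left out. Small classes limit the depth: 27 late astrocyte-like cells gave 44 Fth1 UMIs, and levels of 3 UMIs or fewer were read as the floor.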

Other observations

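Ependymal-like cells, of which only the early tumor held enough for a sum (91 cells), had metallothioneins above the early astrocyte-like cells. Mt1 stood at 5005 CPM, Mt2 at 2226 CPM and Mt3 at 692 CPM there, against 3030, 1735 and 435 CPM. Fth1 stood at 3330 CPM in the same cells. In fibroblast-like cells, Fth1 stood at 2654 CPM early, 3018 CPM at the medium stage and 5680 CPM late, and their oligodendrocyte markers summed to 832, 992 and 1659 CPM, so that both were highest in the late tumor; the part of these markers in Fth1 was not tested.

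Some glioma-like cells were found in the CD45+ sort and, in 2 of the 3 clusters, held more Mt1 and Mt2 transcripts than their cluster mates of the CD45- sort. In the medium tumor, the Apobec3 cluster held Mt2 at 841 CPM (interval 728 to 967) in 74 CD45+ cells and 432 CPM (389 to 479) in 135 CD45- cells, and Mt1 at 1436 and 722 CPM. In the late tumor, the Itga8 cluster held Mt2 at 665 CPM (547 to 802) in 38 CD45+ cells and 185 CPM (172 to 199) in 530 CD45- cells, and Mt1 at 1113 and 503 CPM. With 1 tumor sample for each cluster, these are values with no test. The Gpr17 cluster did not share the difference for Mt2, at 122 and 114 CPM in the medium tumor and at 19.6 CPM from 2 UMIs and 86.6 CPM in the late one. For Mt3 no difference between sorts was shown in the Apobec3 and Itga8 clusters, since its intervals overlapped. Whether Mt3 departed there from Mt1 and Mt2 was not tested. Over all glioma-like cells of the medium tumor, the ratio of Mt3 to Mt1 UMIs was 0.0240 in the CD45+ and 0.0838 in the CD45- sort, and the late tumor gave 0.0435 and 0.0864; these ratios pool clusters of different Mt3 level. By cluster, Mt3 stood at 16.99 CPM (4.63 to 43.5) in the CD45+ and 7.12 CPM (2.61 to 15.5) in the CD45- cells of the Apobec3 cluster, at 24.2 CPM (6.59 to 62.0) and 19.4 CPM (15.3 to 24.3) in the late Itga8 cluster, and at 25.7 CPM (11.1 to 50.6) and 70.1 CPM (56.7 to 85.8) in the medium Gpr17 cluster. Neutrophil-like cells, which came next after endothelial-like cells in Slc40a1, held 36, 103 and 7 of its UMIs in 51, 252 and 27 cells.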
